A study of Mus musculus with 11 samples.

Results

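Total RNA of C2C12 cells, an established mouse myoblast line, was compared between 2 groups of 3 libraries that are set by the hairpin named in their file names. These are 6 of the 11 libraries of the series, and the other 5 hold newly made RNA marked with 4-thiouridine (4sU). All cells received, at a multiplicity of infection of 100, an adenovirus whose U6 promoter drives a short hairpin RNA, either the Zc3h10 targeted hairpin or a scrambled one, so the controls carried virus and hairpin too. Cells of both kinds were confluent myoblasts exposed to 4sU for 30 min, and a portion of each harvest was set aside for total RNA, from which rRNA was removed before random-primed cDNA was made. A single hairpin sequence against Zc3h10 is described, and no uninfected cells are among the groups. The labels do not say if replicates are separate cultures, and the p-values therefore reflect the spread between the sequenced libraries alone, which could be technical.

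The titles and genotype labels of all 6 total RNA libraries name the opposite hairpin to their file names. Libraries are called here SH-file 1 to 3 (file named SH, title WT, genotype scrambled hairpin) and WT-file 1 to 3 (file named WT, title SH, genotype Zc3h10 targeted hairpin). Every fold change is on the log2 scale and SH-file minus WT-file. Numbers in parentheses after a gene are its log2 fold change with its standard error (SE) where given. Under the titles, each direction turns around. Which of the names is right was not tested.

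Zc3h10 encodes a protein with zinc fingers of the CCCH type, a class known for binding RNA. Total RNA is mostly spliced mRNA, whose level follows both synthesis and decay, whereas reads in introns come from unspliced transcripts and lie nearer to synthesis. Myoblasts are the dividing precursors of muscle fibres: they express the myogenic factors Myod1 and Myf5, lay down collagen-rich matrix, and fuse into fibres once growth factors are withdrawn.

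The libraries held 31058706 to 54075687 exonic and 6007028 to 12213901 intronic counts. Introns took 15.3, 16.2 and 21.9% of the counts in SH-file libraries 1 to 3 and 13.8, 10.7 and 11.2% in WT-file libraries 1 to 3, so this share was higher in every SH-file library. The first principal component of exons (58.4% of the variance) ran from WT-file library 3 at −50.4 to SH-file library 3 at 53.2, and SH-file library 2 stood between the groups at 0.913. SH-file library 2 lay nearest to SH-file library 1 (SD of the log2 difference over genes 0.494), closely followed by WT-file library 1 (0.5). It lay further from SH-file library 3 (0.606). Over introns too its nearest library was SH-file library 1 (0.476). The 8 myoblast markers, Myod1, Myf5, Des, Cdh15, Itga7, Chrna1, Pax7 and Ncam1, summed to 2064 to 2975 CPM (counts relative to the library's TMM-scaled total) in SH-file and 4029 to 4852 CPM in WT-file libraries, and none was at 0. Itga7 was called lower among them. Summed over all genes, CPM stood at 905692, 981770 and 784636 in SH-file libraries 1 to 3. In WT-file libraries 1 to 3 this sum was 1027830, 1055130 and 1324840 CPM, so it too was lower in every SH-file library. The sum over all genes follows from the TMM factors and does not measure an amount of RNA. These factors were 1.10, 1.02 and 1.27 in SH-file and 0.973, 0.948 and 0.755 in WT-file libraries 1 to 3. Markers of macrophages, endothelium, adipocytes, bone or cartilage, tendon and epithelium summed to at most 7.31 CPM per list in any library, and Epcam of epithelium was at 0 in all but SH-file library 1. The 2 tendon markers, Scx and Tnmd, summed to 2.24 to 3.0 CPM in SH-file and 0.685 to 1.77 CPM in WT-file libraries, and Tnmd was called higher (1.76). In bulk RNA, fewer cells of a type and less RNA per cell cannot be told apart. The part of the markers and of the intron share in the results was not tested.

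Zc3h10 (Entrez 103284) was lower in the SH-file libraries, in exons and in introns. Its exons stood at 43.6, 52.8 and 29.6 CPM in SH-file libraries 1 to 3 and 69.6, 114 and 75.0 CPM in WT-file libraries 1 to 3, and no SH-file library reached the lowest WT-file library. The means were 42.0 ± 11.6 and 86.1 ± 24.0 CPM (SD, n = 3 each). The log2 fold change was −1.04 (SE 0.30), and the quasi-likelihood test of edgeR, with Benjamini-Hochberg adjustment over all genes, gave an adjusted p of 0.0522, short of the threshold of 0.05 used throughout. Its introns stood at 22.2, 23.4 and 16.0 CPM in SH-file libraries 1 to 3 and 33.1, 54.0 and 41.9 CPM in WT-file libraries 1 to 3, with no overlap either. Their log2 fold change of −1.07 (SE 0.26) was called by edgeR (adjusted p = 0.0325). An exact two-sided permutation test of CPM gave p = 0.1 for each, the smallest p that 3 against 3 libraries allow. The exon fold change was called without WT-file library 3 (adjusted p = 0.0371) or SH-file library 2 (0.0140). EdgeR's call was lost for Zc3h10 introns without WT-file libraries 2 or 3 or SH-file libraries 1 or 3 (adjusted p up to 0.194). Zc3h10 was thus lower in the libraries whose titles name the scrambled hairpin. Groups without overlap, as for Zc3h10, were found in 4057 of 13846 genes tested over exons and 3208 of 13877 over introns.

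**Figure D1:**
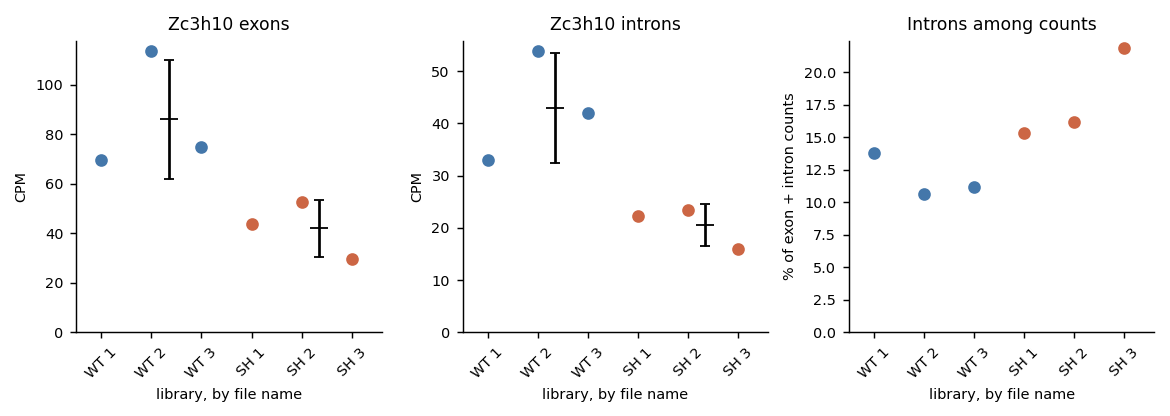
Zc3h10 level in CPM over exons and over introns, and introns as a percentage of all counts, for each library named by its file. Points are libraries, and black bars in the first 2 panels are the group mean with its SD (n = 3). Each SH-file library lies below every WT-file library for Zc3h10, at 29.6 to 52.8 against 69.6 to 114 CPM over exons, and above every WT-file library for the intron share.

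Over exons, the genes with the largest changes included matrix proteoglycans and Wnt antagonists, which were higher in the SH-file libraries. The neuronal pentraxin gene Nptx1 and the guidance gene Sema3c were among those lower. Of 13846 genes tested, edgeR called 465 higher (3.36%) and 424 lower (3.06%), and the median log2 fold change of all genes tested was 0.10. Genes named by size were chosen to have separate groups, as 4057 of the 13846 had, so their lack of overlap follows from the rule. Fmod, for the collagen-binding proteoglycan fibromodulin, stood at 62.3, 59.7 and 70.4 CPM in SH-file libraries 1 to 3 and 3.90, 5.26 and 5.59 CPM in WT-file libraries 1 to 3. The SH-file libraries lay close together and far above each WT-file library, which makes a log2 fold change of 3.71 (SE 0.28). The other named small leucine-rich proteoglycans were Aspn and Omd. Aspn (asporin) stood at 54.3, 24.8 and 41.0 against 6.76, 8.20 and 5.81 CPM (SH-file against WT-file libraries), and Omd (osteomodulin) at 28.6, 19.5 and 24.3 against 5.16, 4.6 and 4.73 CPM. For both genes the groups did not overlap.

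Among secreted regulators, Sfrp2, which binds Wnt proteins outside the cell, stood at 50.9, 46.2 and 89.7 against 5.37, 7.95 and 12.4 CPM, with SH-file library 3 the highest. Nkd2, which dampens Wnt signalling inside the cell, stood at 47.2, 65.1 and 49.2 against 7.09, 11.3 and 9.06 CPM. Fgf7, a growth factor that acts on epithelial cells, stood at 50.0, 33.7 and 55.4 against 10.4, 11.1 and 8.01 CPM. In each of these genes the SH-file libraries stood apart from the WT-file libraries. Cxcl5, a chemokine that attracts neutrophils, stood at 31.9, 13.4 and 31.3 against 5.39, 5.46 and 3.82 CPM, and its lowest SH-file library was number 2. Npr3, the clearance receptor of natriuretic peptides, stood at 25.8, 18.6 and 35.5 against 4.11, 4.01 and 2.47 CPM. Rgs4, which shortens signalling by G proteins, stood at 37.0, 32.9 and 32.3 against 3.47, 3.45 and 7.94 CPM, with WT-file library 3 above the other two. Adamts12, for a secreted metalloprotease, stood at 19.4, 22.5 and 26.7 against 3.49, 3.62 and 5.19 CPM, and Col8a2, for a collagen VIII chain, at 26.8, 23.1 and 44.1 against 2.91, 6.16 and 4.70 CPM. Groups did not overlap for any gene in this paragraph.

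The log2 fold changes of the 14 genes that the naming rule chose as higher ran from 2.22 for Abca9, a lipid transporter of the ABC family (22.3, 43.3 and 21.5 against 4.80, 3.88 and 10.0 CPM), to 3.71 for Fmod. Between them lay Rassf2, which encodes a Ras association domain protein (2.43, SE 0.31), and Mylk, whose kinase phosphorylates myosin light chains (2.50, SE 0.32). In edgeR the adjusted p of the 14 ran from 2.12e-05 to 0.00523.

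Nptx1, for a secreted neuronal pentraxin, was the most reduced of the 14 genes named as lower. It stood at 14.8, 14.2 and 11.2 CPM in SH-file libraries 1 to 3 and 84.3, 86.4 and 325 CPM in WT-file libraries 1 to 3. WT-file library 3 lay far above the other WT-file libraries, and all 3 still lay above the SH-file libraries (−3.63, SE 0.48). Without WT-file library 3 the log2 fold change was −2.77 and the adjusted p 2.25e-04 (edgeR). Sema3c, a secreted guidance cue, was higher in level and stood at 100.0, 149.9 and 75.9 against 626, 761 and 858 CPM, with no overlap. Slc14a1, a urea transporter, stood at 23.8, 24.8 and 15.1 against 105, 104 and 221 CPM and Il2rg, the common gamma chain of interleukin receptors, at 42.5, 45.6 and 30.5 against 131, 119 and 308 CPM. Both genes had their highest level in WT-file library 3.

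Krt80, a keratin, stood at 26.2, 28.1 and 14.7 against 84.0, 79.8 and 129 CPM, and Msln (mesothelin), a surface protein of mesothelium, at 19.9, 14 and 15.3 against 70.3, 61.0 and 105 CPM. F11r, a junctional adhesion molecule, stood at 42.8, 68.9 and 40.6 against 177, 236 and 189 CPM. In these 3 genes no library of one group reached the other group. Klhl30, a kelch family gene, stood at 89.6, 128 and 54.5 against 397, 423 and 501 CPM, and Myom2, for myomesin of the sarcomere M-band, at 80.7, 100.5 and 62.6 against 273, 313 and 382 CPM. Both genes were lower in every SH-file library. Hmga1, an architectural chromatin protein of dividing cells, stood at 159, 185 and 84.1 against 603, 585 and 625 CPM and Prrg4 at 76.9, 93.5 and 52.3 against 370.0, 345 and 261 CPM. Gprc5a, an orphan receptor, stood at 36.0, 23.9 and 20.2 against 121, 49.1 and 165 CPM, with WT-file library 2 the lowest of its group. Btbd11 stood at 10.2, 10.3 and 8.91 against 32.2, 37.9 and 49.5 CPM. The log2 fold changes of the 14 ran from −3.63 to −1.98, with adjusted p from 6.71e-04 to 0.00820 (edgeR). EdgeR no longer called Gprc5a without SH-file library 3 (adjusted p up to 0.0705). The other 27 of the 28 genes named by size were called in each of the 6 fits without a library.

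**Figure D2:**
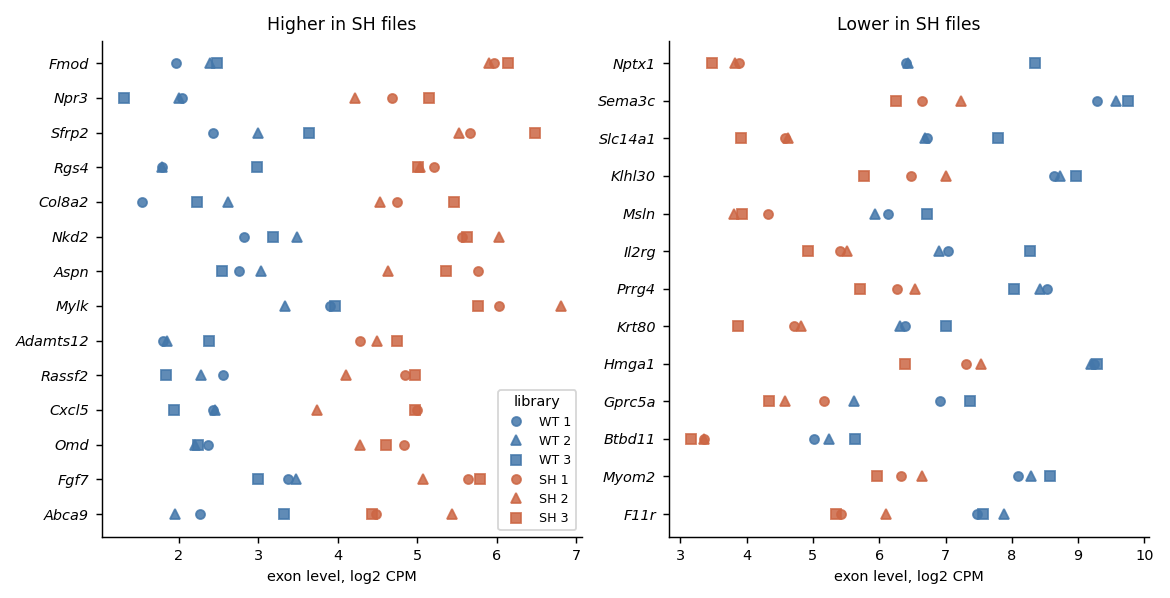
Exon level as log2 CPM of genes called higher and genes called lower in the SH-file libraries that the naming rule chose by size of change and that are described in the text, one row per gene and one point per library (colour for the file name, shape for the replicate number). The groups are separate in each row because the naming rule asks for it. Nptx1 in WT-file library 3 (325 CPM) lies far from the other 2 WT-file libraries (84.3 and 86.4 CPM).

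How many genes were called depended on single libraries. Without SH-file library 2, edgeR called 2588 of 14056 genes over exons (1374 higher and 1214 lower), against 889 with all 6. It called 161 without SH-file library 3 (103 higher, 58 lower) and 201 without SH-file library 1 (135 higher, 66 lower). It called 432 without WT-file library 1 (180 higher, 252 lower), 541 without WT-file library 2 (243 higher, 298 lower) and 699 without WT-file library 3 (266 higher, 433 lower). The counts of each list without a library come from these same fits and are to be read beside these counts over all genes. With DESeq2, 1877 genes were called, 781 higher and 1096 lower.

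**Figure D3:**
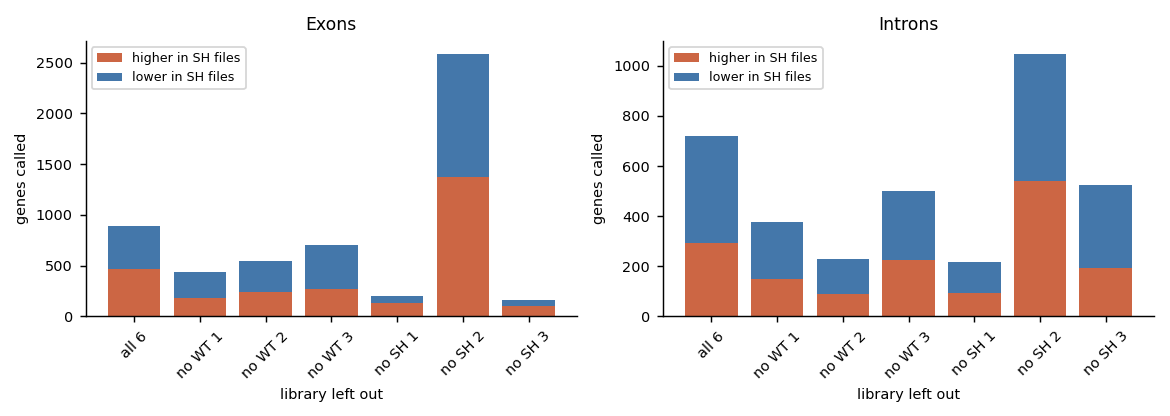
Number of genes called by edgeR (adjusted p below 0.05) with all 6 libraries and with each library left out in turn, for exons and for introns, split into genes higher and lower in the SH-file libraries. Exon calls run from 161 without SH-file library 3 to 2588 without SH-file library 2.

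The extracellular matrix, the fibrous scaffold that myoblasts secrete, was higher in the SH-file libraries at many of its genes. Of 23 collagen genes tested, 10 were called higher and 0 lower, where 3.36% of all genes were called higher and 3.06% lower. Their median log2 fold change was 1.02, against 0.10 for all genes. Col6a1, a chain of the collagen VI that surrounds muscle cells, stood at 805, 692 and 840.4 against 181, 208 and 213 CPM, with the groups far apart (1.96, SE 0.30). Col14a1, for a collagen that lies along fibrils, stood at 14, 22.6 and 17.1 against 4.94, 6.20 and 4.46 CPM (1.78, SE 0.29). Col11a1, a minor fibril collagen, was scarce at 4.92, 3.10 and 4.98 against 0.364, 0.431 and 0.784 CPM but had the largest fold change of the list (3.05, SE 0.39). The other called chains were Col15a1 (2.61), Col12a1 (1.89), Col27a1 (1.43), Col1a1 (1.32), Col5a1 (1.20) and Col5a2 (1.14), with Col8a2 above. Summed over the list, collagens stood at 12033, 13270.1 and 12488 CPM in the SH-file and 6728, 5830.0 and 6734 CPM in the WT-file libraries, without overlap. The 10 calls became 6 without WT-file library 1 or SH-file library 3. By edgeR the adjusted p of Col6a1, Col14a1 and Col11a1 ran from 7.01e-04 to 0.00302, and each was called without any 1 library.

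Of 41 matrix proteoglycans and glycoproteins tested, 11 were called higher and 1 lower (shares over all genes 3.36% and 3.06%), with a median of 0.46. Besides Fmod, Aspn and Omd, Prelp, a proteoglycan that anchors basement membranes, stood at 84.5, 85.8 and 90.4 against 11.4, 15.8 and 30.5 CPM (2.18, SE 0.34). Genes of elastic fibres were among the calls: Emilin1 (2.86), Mfap4 (2.35), Mfap2 (2.08), Mfap5 (1.36), Fbln5 (1.35) and Fbln1 (1.20). Nid2 of the basement membrane was called at 1.49. Thbs2, a matricellular thrombospondin, went the other way (−1.63). The summed level of this list overlapped between groups, at 71490.0, 81346 and 54546 against 55528, 60002 and 81618 CPM. The 11 higher calls became 6 without WT-file library 1 or SH-file libraries 1 or 3. The lone lower call became 0 without SH-file libraries 1 or 3, 2 without SH-file library 2.

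Of 31 matrix enzymes and their inhibitors, 6 were called higher and 1 lower (median 0.12, shares over all genes 3.36% and 3.06%). The aggrecan-cleaving protease Adamts5 stood at 49.8, 30.0 and 61.4 against 20.4, 17.1 and 18.9 CPM (1.32, SE 0.29), and Adamts9, at 0.662, 1.01 and 1.82 against 0.214, 0.308 and 0.196 CPM, was low (2.27, SE 0.50). Adamts2, which trims procollagen, was called at 1.26, Mmp14, a membrane-bound collagenase, at 1.36, and Mmp19 at 1.0. Mmp10, a stromelysin, was lower at 0.890, 1.45 and 0.666 against 4.02, 2.98 and 3.55 CPM (−1.83, SE 0.36). Adjusted p for Adamts5, Adamts9 and Mmp10 ran from 0.0105 to 0.0190 (edgeR). The edgeR call was lost for Adamts5 without WT-file libraries 1, 2 or 3 or SH-file libraries 1 or 3, for Adamts9 without WT-file libraries 1 or 3 or SH-file library 3, for Mmp10 without SH-file libraries 1 or 3 (adjusted p up to 0.157). The 6 higher calls became 1 without WT-file library 1 or SH-file library 3, 2 without WT-file library 3 or SH-file library 1, 3 without WT-file library 2, and the lower call became 0 without SH-file libraries 1 or 3, 2 without WT-file library 3, 5 without SH-file library 2.

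Receptors and basement membrane genes that tie cells to the matrix were called in both directions. Of 28 integrins, laminins and cadherins tested, 5 were called higher and 5 lower (median −0.21, shares over all genes 3.36% and 3.06%). Higher were the collagen-binding integrin chains Itga1 (11.4, 19.8 and 18.2 against 1.84, 2.40 and 3.72 CPM, fold change 2.64, SE 0.34) and Itga11 (1.04), Itga8 (2.06), the laminin chain Lama4 (3.75, 3.73 and 3.72 against 1.18, 0.452 and 0.637 CPM, fold change 2.30, SE 0.38) and Cdh11, a cadherin of mesenchymal cells (329, 349.8 and 341 against 82.1, 128 and 124 CPM, fold change 1.61, SE 0.29). In these 3 genes with levels given, each SH-file library exceeded every WT-file library. Lower were the laminin-binding chains Itga7, the main one of muscle (456, 684 and 417 against 1129, 1148 and 1206 CPM, fold change −1.16, SE 0.32), and Itga6 (−1.23), with Itga4 (−1.02) and Itgb7 (−1.46) among the others. By edgeR the adjusted p was 7.01e-04 for Itga1, 0.00369 for Lama4, 0.00669 for Cdh11 and 0.0444 for Itga7. By edgeR, no call remained for Itga7 without WT-file libraries 1 or 2 or SH-file libraries 1 or 3 (adjusted p up to 0.228). Upper quartile scaling also ended the call of Itga7 (edgeR adjusted p = 0.0516). The higher calls became 3 without WT-file libraries 1 or 2 or SH-file libraries 1 or 3, and the lower calls became 1 without SH-file libraries 1 or 3, 2 without WT-file library 2, 3 without WT-file library 1, 8 without SH-file library 2.

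Genes of the Wnt pathway, in which secreted Wnt ligands act through Frizzled receptors, were called higher at ligands, receptors and antagonists alike. Of 29 tested, 9 were called higher and 1 lower (median 0.36, shares over all genes 3.36% and 3.06%). The ligand Wnt5a was called at a log2 fold change of 1.95. The receptors were Fzd8 (1.79), Fzd4 (1.60), Fzd5 (1.51) and Fzd1 (1.21), with the coreceptor Lrp6 (1.21). The antagonists were Sfrp1, at 10.5, 8.79 and 18.4 against 2.03, 1.5 and 1.64 CPM (2.86, SE 0.34, edgeR adjusted p = 5.21e-04), with Sfrp2 and Nkd2 above. Dkk2, an antagonist that binds Lrp coreceptors, was the member called lower, at 10.4, 11.3 and 9.34 against 30.6, 29.1 and 23.4 CPM (−1.42, SE 0.26, edgeR adjusted p = 0.00618). Both groups of values lay apart in Sfrp1 and in Dkk2. The 9 higher calls became 3 without SH-file library 1, 4 without SH-file library 3, 5 without WT-file libraries 1 or 2.

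Of 32 genes of the TGF-beta and BMP pathway, 8 were called higher and 1 lower (median 0.52, shares over all genes 3.36% and 3.06%). The ligands among them were Tgfb2, at 35.3, 23.8 and 32.3 against 11.2, 11.3 and 12.8 CPM (1.38, SE 0.26), Tgfb3 (1.21) and Bmp4 (1.42). Tgfbr3 (betaglycan), the receptor that presents Tgfb2, stood at 7.66, 6.57 and 9.59 against 2.27, 3.12 and 2.92 CPM (1.52, SE 0.29). Smad6, an inhibitory Smad, was called at 1.26, Smad9, a Smad of the BMP branch, at 1.20, and the target gene Tgfbi at 1.69. The secreted activin antagonist follistatin, Fst, ranged widely at 6.28, 3.89 and 14 against 1.54, 2.07 and 0.588 CPM (2.52, SE 0.50), and the BMP antagonist Grem1 went the other way at 204, 215 and 164 against 481, 555 and 513 CPM (−1.41, SE 0.29). Adjusted p for Tgfb2, Tgfbr3, Fst and Grem1 ran from 0.00813 to 0.0123 (edgeR). The call by edgeR was lost for Tgfb2 without SH-file library 1, for Tgfbr3 and Fst without SH-file library 3, for Grem1 without SH-file libraries 1 or 3 (adjusted p up to 0.0984). The 8 higher calls became 2 without SH-file libraries 1 or 3, 3 without WT-file libraries 1 or 2, and the lower call became 0 without SH-file libraries 1 or 3, 2 without WT-file library 3, 3 without SH-file library 2.

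The insulin-like growth factors, which drive growth and differentiation of myoblasts, were higher at both ligands. Igf2 stood at 104, 99.4 and 108 against 20.8, 23.2 and 45.6 CPM (1.80, SE 0.32), with WT-file library 3 the highest of its group, and Igf1 at 49.8, 60.2 and 58.9 against 13.3, 12.5 and 20.3 CPM (1.87, SE 0.28). The binding protein Igfbp3 was scarce at 2.48, 2.21 and 4.39 against 0.428, 0.842 and 0.220 CPM (2.59, SE 0.47). Pappa, a protease that frees ligand from binding proteins, stood at 14.2, 18.9 and 19.5 against 7.81, 6.08 and 7.55 CPM (1.29, SE 0.27). Igf2bp2, an RNA-binding protein, was the member called lower (−1.04). In all, 4 of 18 genes were called higher and 1 lower (median 0.47, shares over all genes 3.36% and 3.06%). By edgeR the adjusted p of Igf2, Igf1, Igfbp3 and Pappa ran from 0.00150 to 0.0127. In edgeR the call was lost for Igfbp3 without SH-file library 3, for Pappa without WT-file library 2 or SH-file library 3 (adjusted p up to 0.0775). The higher calls became 2 without SH-file library 3, 8 without SH-file library 2, and the lower call became 0 without WT-file libraries 1 or 2 or SH-file libraries 1 or 3.

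Of 36 genes listed under semaphorins, ephrins and guidance, 4 were called lower and 2 higher (median 0.04, shares over all genes 3.06% and 3.36%). The list also holds the neuronal genes Nptx1 and Nefl, which are not guidance cues. Besides Nptx1 and Sema3c, the neurofilament gene Nefl stood at 25.2, 23.8 and 13.6 against 47.2, 56.9 and 60.8 CPM (−1.40, SE 0.29) and the membrane-anchored Sema7a at 29.4, 21.7 and 24.5 against 39.3, 48.0 and 64.0 CPM (−1.0, SE 0.27). Both genes had separate groups, and their adjusted p was 0.0122 and 0.0414 (edgeR). The higher calls were the receptors Robo2 (1.28) and Ephb4 (0.99). EdgeR's call was lost for Nefl without SH-file library 3, for Sema7a without WT-file libraries 1, 2 or 3 or SH-file libraries 1 or 3 (adjusted p up to 0.141). The lower calls became 2 without SH-file library 3, and the higher calls 0 without WT-file library 1 or SH-file libraries 1 or 3, 1 without WT-file libraries 2 or 3.

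Of 31 myogenic regulators and early muscle genes, 0 were called higher and 4 lower (median 0.03, shares over all genes 3.36% and 3.06%). The lower ones were Klhl30, Chrnd, Itga7 and Klhl41. Chrnd, the delta subunit of the muscle acetylcholine receptor, stood at 95.1, 89.2 and 61.9 against 257, 367 and 306 CPM (−1.92, SE 0.30), with the groups wide apart. Klhl41, a kelch protein of the sarcomere, stood at 7.08, 9.96 and 5.65 against 16.5, 15.8 and 16.8 CPM (−1.12, SE 0.28). The master regulators themselves did not pass. Myod1 stood at 68.4, 45.3 and 45.6 against 42.6, 43.6 and 44.5 CPM (0.29, SE 0.26, adjusted p = 0.503, edgeR), Myf5 at 90.9, 134 and 78.6 against 102, 118 and 63.0 CPM (0.10, SE 0.31, 0.867) and Myog, which starts differentiation, at 40.2, 26.5 and 39.5 against 35.1, 37.5 and 26.5 CPM (0.10, SE 0.27, 0.839). The adjusted p of Chrnd was 0.00261 and that of Klhl41 0.0307 (edgeR). EdgeR no longer called Klhl41 without WT-file libraries 1 or 2 or SH-file libraries 1 or 3 (adjusted p up to 0.150). The 4 lower calls became 2 without WT-file libraries 1 or 2 or SH-file libraries 1 or 3, and the 0 higher calls 1 without SH-file library 2. The list summed to 3924, 3869 and 3092 CPM in the SH-file and 5411, 6366 and 5929.8 CPM in the WT-file libraries. The WT-file libraries all stood higher, as they did in the sum over all genes given above, which follows from the TMM factors.

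Of 40 genes of the sarcomere and of calcium handling, 2 were called lower, Myom2 and the calsequestrin gene Casq2 (9.14, 8.69 and 7.14 against 15.9, 19.7 and 12.9 CPM, fold change −0.96, SE 0.27), and 1 higher, the myosin-binding protein gene Mybpc1 (2.57, 2.21 and 2.21 against 0.257, 0.575 and 0.514 CPM, fold change 2.37, SE 0.39). These counts lie near the shares over all genes, 3.06% called lower and 3.36% higher. The list median was −0.16, and edgeR's adjusted p was 0.0484 for Casq2 and 0.00369 for Mybpc1. The edgeR call was lost for Casq2 without WT-file libraries 1 or 2 or SH-file libraries 1 or 3 (adjusted p up to 0.184). Casq2 was not called with upper quartile scaling either (edgeR adjusted p = 0.0520). The lower calls became 1 without WT-file library 1 or SH-file libraries 1 or 3, 4 without SH-file library 2. The higher call became 3 without SH-file library 2.

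Of 26 contractile genes of smooth muscle, 5 were called higher and 2 lower (median 0.08, shares over all genes 3.36% and 3.06%). Lmod1, which nucleates actin filaments in smooth muscle, stood at 22.7, 15.4 and 20.7 against 4.13, 3.35 and 2.13 CPM (2.61, SE 0.32), and Aoc3, for a surface amine oxidase, at 22.5, 19.1 and 26.2 against 4.05, 3.33 and 3.53 CPM (2.64, SE 0.27). Together with Mylk these had separate groups. The transgelin gene Tagln was called at 1.32 and the calponin gene Cnn1 at 1.20. Myocd, for the coactivator myocardin, went the other way (−2.27), as did Pdlim3, for a Z-disc protein (67.7, 62.7 and 49.8 against 139, 212 and 192 CPM, fold change −1.59, SE 0.29). Adjusted p ran from 2.63e-04 to 0.00609 for Lmod1, Aoc3, Mylk and Pdlim3 (edgeR), and each of these 4 was called without any 1 library. The 5 higher calls became 3 without WT-file libraries 1 or 3 or SH-file library 1, and the lower calls 1 without SH-file libraries 1 or 3. The CArG box, the site of serum response factor, was found on both strands in the promoters (250 bases before to 50 after the start) of 4 of 22 genes of this list with a RefSeq promoter (18.2%), and in 1.81% of 27025 genes. Of the called genes of the list, 4 have a RefSeq promoter, and none of these holds the box.

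The integrated stress response, in which ATF4 switches on genes of amino acid supply when translation is checked, had more genes called lower than higher in the SH-file libraries. Of 33 of its genes tested, 8 were called lower and 1 higher (median −0.50, shares over all genes 3.06% and 3.36%). Its transcription factor Atf3 stood at 36.1, 32.0 and 18.4 against 107, 108 and 48.7 CPM (−1.61, SE 0.35), with WT-file library 3 the lowest of its group. Chac1, which breaks down glutathione, stood at 76.3, 107 and 48.9 against 209.9, 275 and 213 CPM (−1.59, SE 0.32). Fgf21, a hormone that muscle releases under mitochondrial stress, stood at 13.5, 16.1 and 10.8 against 33.6, 40.4 and 41.9 CPM (−1.52, SE 0.26). In each gene the groups did not overlap. The list summed to 3668, 5077 and 2770.4 CPM in the SH-file and 7539, 7323 and 9430.0 CPM in the WT-file libraries. The sum over all genes, which follows from the TMM factors, was lower in every SH-file library too. The other calls were Slc7a1 (−1.35), a transporter of cationic amino acids, Stc2 (−1.22), Asns (−1.18), which makes asparagine, and the serine genes described next. Cbs, which makes cystathionine, was the member called higher (1.76). The adjusted p of Fgf21, Chac1 and Atf3 was 0.00485, 0.0115 and 0.0165 (edgeR). By edgeR, no call remained for Chac1 without SH-file libraries 1 or 3, for Atf3 without WT-file library 1 or SH-file libraries 1 or 3 (adjusted p up to 0.109). The 8 lower calls became 1 without SH-file library 1, 2 without SH-file library 3, 4 without WT-file library 1, 5 without WT-file library 2, and the higher call 0 without WT-file libraries 1 or 2 or SH-file libraries 1 or 3, 3 without SH-file library 2.

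ATF4 binds, as a dimer with C/EBP proteins, a composite element that reads TGATGNAA. It was found on either strand in the promoters of 10 of 30 genes of this list with a RefSeq promoter (33.3%) and in 4.51% of 27025 genes. The 10 were Asns, Atf3, Chac1, Fgf21, Nupr1, Pck2, Pycr1, Slc7a11, Trib3 and Vldlr, and 4 of the 9 called genes with a promoter hold it. The 250 bases before the start are shown for the 3 called holders with the largest change, from RefSeq on GRCm38.p6, to let the element be seen in place. Capitals mark the match, which on the strand of the gene reads TTGCATCA in all 3. A match is a description of the sequence and not a binding site shown in these cells.
Atf3: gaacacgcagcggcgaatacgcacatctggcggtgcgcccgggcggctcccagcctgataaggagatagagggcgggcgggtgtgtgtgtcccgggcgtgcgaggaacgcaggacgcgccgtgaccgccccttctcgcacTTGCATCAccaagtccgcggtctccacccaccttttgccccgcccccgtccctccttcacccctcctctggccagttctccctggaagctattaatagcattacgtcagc
Chac1: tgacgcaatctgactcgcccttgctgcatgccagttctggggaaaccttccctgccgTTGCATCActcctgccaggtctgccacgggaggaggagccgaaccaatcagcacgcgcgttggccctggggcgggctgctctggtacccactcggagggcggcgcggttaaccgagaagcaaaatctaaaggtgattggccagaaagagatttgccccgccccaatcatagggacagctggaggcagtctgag
Fgf21: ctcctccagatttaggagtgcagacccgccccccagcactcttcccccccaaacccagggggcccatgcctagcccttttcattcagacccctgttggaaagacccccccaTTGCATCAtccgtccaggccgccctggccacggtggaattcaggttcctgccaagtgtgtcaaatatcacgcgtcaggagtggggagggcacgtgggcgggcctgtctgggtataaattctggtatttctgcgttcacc
The stretches are chr1:191183334-191183583 (minus strand), chr2:119350992-119351241 (plus strand) and chr7:45615491-45615740 (minus strand). The match begins at −110, −193 and −139 from the start of Atf3, Chac1 and Fgf21.

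Serine and one-carbon genes, which supply units for nucleotide synthesis, were called lower at 3 of 22 members and higher at 0 (median −0.18, shares over all genes 3.06% and 3.36%). Psat1, of serine synthesis, was abundant and stood at 947, 1294 and 532 against 3208, 3367 and 3018 CPM (−1.79, SE 0.38). Shmt2, the mitochondrial serine hydroxymethyltransferase, stood at 94.4, 98.8 and 76.5 against 173, 215 and 224 CPM (−1.18, SE 0.28), and its cytosolic counterpart Shmt1 at 16.1, 15.8 and 12.3 against 24.3, 27.4 and 30.2 CPM (−0.89, SE 0.25). No SH-file library reached a WT-file library in these 3 genes, and edgeR's adjusted p ran from 0.0144 to 0.0498. The call by edgeR was lost for Psat1 without SH-file libraries 1 or 3, for Shmt2 without WT-file library 2 or SH-file libraries 1 or 3, for Shmt1 without WT-file libraries 1, 2 or 3 or SH-file libraries 1 or 3 (adjusted p up to 0.179). With upper quartile scaling the adjusted p of Shmt1 was 0.0526 (edgeR). The lower calls became 0 without SH-file libraries 1 or 3, 1 without WT-file library 2, 6 without SH-file library 2.

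Of 36 aminoacyl-tRNA synthetases, which charge tRNAs with amino acids, 5 were called lower and 0 higher (median −0.21, shares over all genes 3.06% and 3.36%). Among the cytosolic enzymes, Gars stood at 76.6, 60.8 and 61.5 against 116, 136 and 173 CPM (−1.09, SE 0.27) and Farsb at 72.0, 89.0 and 58.9 against 134, 143 and 204 CPM (−1.13, SE 0.29). Among the mitochondrial ones, Mars2 stood at 59.4, 75.0 and 33.3 against 133, 125 and 122 CPM (−1.18, SE 0.31), Tars2 at 82.5, 127 and 65.1 against 183, 211 and 223 CPM (−1.17, SE 0.30), and Sars2 was called at −1.19. The groups were separate in each. The introns of Gars, Farsb, Tars2 and Sars2 had log2 fold changes of 0.12, −0.03, −0.25 and −0.09, none of them called. The exon change minus the intron change was −1.23 for Gars, −1.10 for Farsb and −0.96 for Tars2. It was not called for any of them (edgeR adjusted p = 0.147, 0.123 and 0.148). EdgeR's adjusted p ran from 0.0317 to 0.0363 for the first 4 in exons. In edgeR the call was lost for Gars, Farsb, Mars2 and Tars2 without WT-file libraries 1 or 2 or SH-file libraries 1 or 3 (adjusted p up to 0.189). The lower calls became 0 without WT-file libraries 1 or 2 or SH-file libraries 1 or 3, 8 without SH-file library 2, and the 0 higher calls 2 without SH-file library 2. Of 25 endoplasmic reticulum stress genes, 0 were called higher and 1 lower, the ubiquitin ligase Syvn1 (127, 168 and 133 against 269.6, 300.5 and 463 CPM, fold change −1.27, SE 0.31, edgeR adjusted p = 0.0275). EdgeR's call was lost for Syvn1 without SH-file libraries 1 or 3 (adjusted p up to 0.160). The lower call of that list became 0 without SH-file libraries 1 or 3, 2 without WT-file library 3, 3 without SH-file library 2, and the 0 higher calls 2 without SH-file library 2.

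Of 45 cell cycle genes, 5 were called lower and 0 higher (median −0.47, shares over all genes 3.06% and 3.36%). Anln (anillin), of the cleavage furrow, stood at 262, 287 and 147 against 798, 734 and 838 CPM (−1.77, SE 0.33). E2f2, a transcription factor of S phase entry, stood at 24.5, 24.3 and 24.7 against 61.8, 57.4 and 70.2 CPM (−1.37, SE 0.25) with little spread within a group. E2f8, a repressing E2F, stood at 44.2, 36.4 and 26.8 against 97.7, 64.4 and 126 CPM (−1.43, SE 0.31), the phosphatase gene Cdc25b at 199, 250.0 and 129.6 against 443, 540.0 and 410.3 CPM (−1.27, SE 0.32), and Ccne2 was called at −1.47. The list summed to 4891, 5609 and 3815 against 7683, 7163 and 6984 CPM, without overlap. The sum over all genes, which follows from the TMM factors, did not overlap either. EdgeR's adjusted p ran from 0.00609 to 0.0322. EdgeR no longer called Anln without SH-file library 1, for E2f8 without SH-file libraries 1 or 3, for Cdc25b without WT-file libraries 1 or 2 or SH-file libraries 1 or 3 (adjusted p up to 0.157). The 5 lower calls became 1 without SH-file library 1, 2 without SH-file library 3, 3 without WT-file library 1, 8 without WT-file library 3, 13 without SH-file library 2, and DESeq2 called 15. The 0 higher calls became 1 without SH-file library 2. Of 36 DNA replication genes, 2 were called lower and 0 higher (median −0.48): Rrm1, of ribonucleotide reductase (403, 463 and 239 against 652, 932 and 1226 CPM, fold change −1.35, SE 0.36), and the origin factor Mcm10 (32.3, 40.3 and 27.1 against 69.4, 67.4 and 62.6 CPM, fold change −1.0, SE 0.26), at adjusted p = 0.0384 and 0.0340 (edgeR). The edgeR call was lost for Rrm1 without WT-file library 2 or SH-file libraries 1 or 3, for Mcm10 without WT-file libraries 1 or 2 or SH-file libraries 1 or 3 (adjusted p up to 0.162). These lower calls became 0 without WT-file library 2 or SH-file libraries 1 or 3, 1 without WT-file library 1, 5 without WT-file library 3, 9 without SH-file library 2.

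Of 25 p53 targets, 2 were called lower and 1 higher (median −0.01, shares over all genes 3.06% and 3.36%). The cyclin-dependent kinase inhibitor gene Cdkn1a stood at 81.4, 69.6 and 54.9 against 179.7, 135 and 199.8 CPM (−1.32, SE 0.29) and the receptor gene Eda2r at 24.5, 34.4 and 31.6 against 59.0, 63.5 and 153 CPM (−1.61, SE 0.36). Phlda3, an inhibitor of Akt, was called higher although its groups overlapped, at 23.4, 8.47 and 45.7 against 6.42, 9.86 and 4.51 CPM (1.90, SE 0.47). EdgeR's adjusted p ran from 0.0166 to 0.0306. By edgeR, no call remained for Cdkn1a without WT-file library 1 or SH-file libraries 1 or 3, for Eda2r without SH-file libraries 1 or 3, for Phlda3 without WT-file libraries 1 or 3 or SH-file libraries 1 or 3 (adjusted p up to 0.225). The lower calls became 0 without SH-file libraries 1 or 3, 1 without WT-file library 1, 4 without WT-file library 3 or SH-file library 2, and the higher call 0 without WT-file libraries 1 or 3 or SH-file libraries 1 or 3, 3 without SH-file library 2. Of 29 immediate early genes, 0 were called higher and 1 lower, Atf3. These became 5 without SH-file library 2 (higher), and 0 without WT-file library 1 or SH-file libraries 1 or 3, 2 without SH-file library 2 (lower).

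Among chemokines, cytokines and their receptors, 9 of 30 were called higher and 2 lower (median 0.28, shares over all genes 3.36% and 3.06%). The ligands were Cxcl5, the neutrophil chemokine Cxcl1 (8.95, 3.22 and 9.48 against 1.93, 2.14 and 0.955 CPM, fold change 2.11, SE 0.42), the monocyte chemokine Ccl2 (2.80, 1.71 and 3.78 against 0.706, 1.05 and 0.637 CPM, fold change 1.79, SE 0.39), Ccl7 (1.08) and Csf1 (1.03). SH-file library 2 was the lowest of its group for Cxcl1 and Ccl2. The receptors were Il1r1 (1.19), Il6st (1.30) and Lifr (1.21), with the decoy receptor Tnfrsf11b (2.20). Lower were Il2rg and the cytokine Il15 (−1.68). The adjusted p of Cxcl1 and Ccl2 was 0.0110 and 0.0165 (edgeR). The call by edgeR was lost for Cxcl1 without SH-file libraries 1 or 3, for Ccl2 without WT-file libraries 1 or 3 or SH-file libraries 1 or 3 (adjusted p up to 0.119). The 9 higher calls became 1 without SH-file libraries 1 or 3, 2 without WT-file library 1, 3 without WT-file library 2, 5 without WT-file library 3, and the lower calls 1 without WT-file libraries 1 or 3 or SH-file libraries 1 or 3. Of 30 interferon-stimulated genes, 2 were called higher and 0 lower (median 0.31), both at low levels: the peptide transporter gene Tap1 (2.20, 1.86 and 1.78 against 0.599, 0.555 and 0.735 CPM) and Ifi44 (3.05, 4.05 and 2.47 against 0.899, 1.56 and 1.47 CPM), at adjusted p = 0.0178 and 0.0442 (edgeR). In edgeR the call was lost for Tap1 without WT-file libraries 1 or 2 or SH-file libraries 1 or 3, for Ifi44 without WT-file libraries 1, 2 or 3 or SH-file libraries 1, 2 or 3 (adjusted p up to 0.147). With DESeq2's size factors the adjusted p of Ifi44 was 0.0506 (edgeR). The higher calls became 0 without WT-file libraries 1 or 2 or SH-file libraries 1 or 3, 1 without WT-file library 3, and the 0 lower calls 3 without SH-file library 2.

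Of 21 adipogenic and lipid uptake genes, 3 were called higher and 1 lower (median 0.30, shares over all genes 3.36% and 3.06%). Lpl, the lipase that frees fatty acids from lipoproteins, stood at 116, 103 and 119 against 29.2, 32.2 and 29.7 CPM (1.89, SE 0.25), with little spread in either group. The preadipocyte factor Zfp423 stood at 5.53, 4.93 and 7.41 against 0.578, 1.36 and 2.38 CPM (2.06, SE 0.42) and Cebpa at 1.70, 0.790 and 3.69 against 0.278, 0.329 and 0.612 CPM (2.36, SE 0.54), while Angptl4, an inhibitor of Lpl, was lower at 7.29, 5.37 and 5.6 against 13.9, 18.9 and 9.26 CPM (−1.20, SE 0.31). Fabp4, Plin1, Adipoq and Cidec, markers of fat cells, were too low to be tested. EdgeR's adjusted p ran from 8.14e-04 to 0.0330. EdgeR's call was lost for Zfp423 without SH-file library 3, for Cebpa and Angptl4 without WT-file libraries 1 or 2 or SH-file libraries 1 or 3 (adjusted p up to 0.173). The higher calls became 1 without SH-file library 3, and the lower call 0 without WT-file libraries 1 or 2 or SH-file libraries 1 or 3, 3 without SH-file library 2. Of 33 sterol synthesis and uptake genes, 2 were called lower and 0 higher (median −0.14). Among them was Fdft1, which makes squalene (442, 525 and 309.9 against 746, 937 and 1231 CPM, fold change −1.19, SE 0.34), at adjusted p = 0.0483 (edgeR). EdgeR no longer called Fdft1 without WT-file libraries 1, 2 or 3 or SH-file libraries 1 or 3 (adjusted p up to 0.195). Fdft1 was not called with upper quartile scaling (edgeR adjusted p = 0.0523) or a minimum count of 50 (0.0502). These lower calls became 0 without SH-file libraries 1 or 3, 1 without WT-file libraries 2 or 3, 5 without SH-file library 2, and the 0 higher calls 1 without SH-file library 2.

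Each mitochondrial list had 0 to 3 genes called in either direction, where 3.36% of all genes were called higher and 3.06% lower. Of 37 complex I genes, 1 was called higher, Ndufa13 (11.4, 4.74 and 10.9 against 3.53, 3.57 and 1.71 CPM, fold change 1.61, SE 0.38), and 1 lower, the iron-sulphur subunit gene Ndufs8 (566, 850.4 and 464 against 1159, 1659 and 1757 CPM, fold change −1.28, SE 0.35). The median of complex I was 0.50, against 0.10 for all genes. Of 41 genes of complexes II to V, 0 were called higher and 1 lower, Cox6a1 of cytochrome oxidase (127, 192 and 147 against 251, 282 and 1212 CPM, fold change −1.90, SE 0.51). WT-file library 3 stood far above the other libraries for Cox6a1. Of 75 mitochondrial ribosomal protein genes, 3 were called lower, Mrps6 (30.5, 44.4 and 24.1 against 108, 67.8 and 131 CPM, fold change −1.63, SE 0.32), Mrps27 (−1.36, SE 0.31) and Mrpl37 (−1.05, SE 0.26), and 0 higher. Pdhb, of the pyruvate dehydrogenase complex, stood at 1441, 1839 and 927 against 3039.9, 3538 and 4524 CPM (−1.40, SE 0.37) and was the call among 25 genes of the tricarboxylic acid cycle. EdgeR's adjusted p of these 7 genes ran from 0.00973 to 0.0418. The edgeR call was lost for Ndufa13 and Cox6a1 without WT-file library 3 or SH-file libraries 1 or 3, for Ndufs8, Mrpl37 and Pdhb without WT-file libraries 1 or 2 or SH-file libraries 1 or 3, for Mrps6 without SH-file libraries 1 or 3, for Mrps27 without WT-file library 1 or SH-file libraries 1 or 3 (adjusted p up to 0.212). DESeq2 did not call Cox6a1 (adjusted p = 0.0823). Without SH-file library 2, complex I had 14 called higher and 1 lower, complexes II to V 10 called higher and 3 lower, mitochondrial ribosomal proteins 9 called higher and 9 lower and the tricarboxylic acid cycle 0 called higher and 5 lower. In that fit 1374 of all 14056 genes tested were called higher and 1214 lower. Without WT-file library 3, 7 mitochondrial ribosomal protein genes and 2 genes of the tricarboxylic acid cycle were called lower.

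Of 35 genes of mitochondrial biogenesis and import, 2 were called lower and 0 higher (median 0.27, shares over all genes 3.06% and 3.36%). Tfb1m, which methylates the mitochondrial small-subunit rRNA, stood at 13.6, 23.4 and 11 against 31.2, 30.9 and 97.8 CPM (−1.74, SE 0.43), with WT-file library 3 far above the rest. Timm50, of the inner membrane translocase, stood at 77.4, 86.9 and 44.9 against 127, 157 and 196 CPM (−1.20, SE 0.31). The regulators did not pass. The coactivator gene Ppargc1a was barely detected, at 0.397, 0.474 and 0.288 against 0.749, 0.308 and 0.416 CPM, and its relative Ppargc1b stood at 4.18, 3.41 and 6.21 against 5.18, 2.71 and 4.31 CPM. Tfam, for the factor that packs mitochondrial DNA, stood at 11.1, 6.95 and 8.74 against 5.97, 6.06 and 4.65 CPM, and Nrf1, for a nuclear regulator of respiratory genes, at 25.5, 22.6 and 22.9 against 23.9, 23.1 and 20.9 CPM. Adjusted p ran from 0.142 to 0.894 for these 4 genes (edgeR). Groups overlapped for these regulators except Tfam, whose log2 fold change was 0.69 (SE 0.28). Of 20 genes of mitochondrial dynamics, 1 was called lower, Chchd6 of the cristae (4.66, 3.57 and 3.65 against 8.35, 6.90 and 8.33 CPM, fold change −0.99, SE 0.28), and 0 higher. Adjusted p for Tfb1m, Timm50 and Chchd6 ran from 0.0300 to 0.0476 (edgeR). By edgeR, no call remained for Tfb1m without WT-file library 3 or SH-file libraries 1 or 3, for Timm50 without WT-file libraries 1 or 2 or SH-file libraries 1 or 3, for Chchd6 without WT-file libraries 1, 2 or 3 or SH-file libraries 1 or 3 (adjusted p up to 0.176). Without SH-file library 2, biogenesis and import had 3 called higher and 4 lower, and dynamics 1 called higher and 4 lower. Over all 14056 genes that fit called 1374 higher and 1214 lower.

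Iron and cardiolipin genes had 4 calls between them over exons. Of 25 iron genes, 2 were called lower and 0 higher (median −0.09): Pcbp1, an iron chaperone and RNA-binding protein (191, 178 and 143 against 386, 321 and 479 CPM, fold change −1.21, SE 0.30), and the metalloreductase gene Steap1 (9.01, 9.67 and 8.51 against 13.1, 17.7 and 24.2 CPM, fold change −1.01, SE 0.28). The transferrin receptor gene Tfrc stood at 178, 228 and 134 against 342, 431 and 220.5 CPM (−0.88, SE 0.33, adjusted p = 0.112, edgeR), with overlap, and the mitochondrial iron carrier Slc25a37 at 79.6, 76.2 and 111 against 68.0, 55.3 and 75.4 CPM (0.42, SE 0.27, 0.329), with none. Slc25a28, the other mitoferrin gene, stood at 11.4, 13.0 and 12.8 against 13.6, 12.0 and 22.9 CPM, the ferroportin gene Slc40a1 at 16.1, 20.2 and 12.3 against 13.8, 13.4 and 9.95 CPM, and the importer gene Slc11a2 at 51.7, 55.1 and 52.0 against 61.0, 51.9 and 49.6 CPM. The ferritin genes Fth1 and Ftl1, whose near-identical copies make their counts uncertain, had log2 fold changes of −0.09 (SE 0.31) and −0.11 (SE 0.31). Adjusted p ran from 0.391 to 0.949 for these 5 genes over exons (edgeR), and their groups overlapped there. The introns of Ftl1 were called lower (−0.90, SE 0.24, edgeR adjusted p = 0.0455), and those of Fth1 were not called (−0.84, SE 0.25, 0.0739). Of 20 cardiolipin genes, 1 was called higher, the acyltransferase gene Gpam (31.6, 26.8 and 33.8 against 15.6, 14.8 and 16.6 CPM, fold change 0.98, SE 0.25), and 1 lower, the lipid transfer gene Slmo1 (9.44, 11.2 and 6.26 against 16.1, 15.0 and 25.2 CPM, fold change −1.07, SE 0.30). The cardiolipin synthase gene Crls1 (0.92, SE 0.46), the tafazzin gene Taz (0.33, SE 0.26) and the phosphatase gene Ptpmt1 (0.79, SE 0.34) did not pass, at adjusted p from 0.154 to 0.438 (edgeR). For the called genes, adjusted p of Pcbp1, Steap1, Gpam and Slmo1 ran from 0.0287 to 0.04998 (edgeR). The call by edgeR was lost for Pcbp1 without WT-file library 1 or SH-file libraries 1 or 3, for Steap1 without WT-file libraries 2 or 3 or SH-file libraries 1 or 3, for Gpam and Slmo1 without WT-file libraries 1, 2 or 3 or SH-file libraries 1 or 3 (adjusted p up to 0.205). Upper quartile scaling ended the call of Slmo1 (edgeR adjusted p = 0.0519). Lower calls among iron genes became 0 without SH-file libraries 1 or 3, 1 without WT-file libraries 1 or 2, and without SH-file library 2 cardiolipin had 2 called higher and 2 lower. With all 6 libraries, 3.36% of all genes were called higher and 3.06% lower. Without SH-file library 2, 1374 of 14056 genes were called higher and 1214 lower.

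Of 29 antioxidant genes, 2 were called lower, Nqo1, a quinone reductase (62.9, 72.0 and 53.9 against 143, 182 and 142 CPM, fold change −1.30, SE 0.27), and the catalase gene Cat (249, 276 and 156 against 421, 495 and 650.0 CPM, fold change −1.20, SE 0.32), and 0 higher. Their adjusted p was 0.0131 and 0.0415 (edgeR). In edgeR the call was lost for Nqo1 without SH-file libraries 1 or 3, for Cat without WT-file libraries 1 or 2 or SH-file libraries 1 or 3 (adjusted p up to 0.167). The lower calls became 0 without SH-file libraries 1 or 3, 1 without WT-file libraries 1 or 2, and the 0 higher calls 1 without SH-file library 2. In 5 pathway lists edgeR called 0 genes over exons, where 3.36% of all genes were called higher and 3.06% lower. They were 26 genes of fatty acid oxidation (9 at an unadjusted p below 0.05, 2 by DESeq2), 27 of glycolysis (8 at an unadjusted p below 0.05, 5 by DESeq2) and 37 of iron-sulphur cluster and haem synthesis (3 at an unadjusted p below 0.05, 3 by DESeq2). The others were 16 genes of metallothioneins and zinc handling (3 at an unadjusted p below 0.05, 1 by DESeq2) and 26 CCCH zinc finger genes, Zc3h10 included (7 at an unadjusted p below 0.05, 1 by DESeq2). Over all 13846 genes tested, 3722 had an unadjusted p below 0.05 in edgeR, and DESeq2 called 1877. Without SH-file library 2, called genes in these 5 lists numbered 6, 3, 2, 3 and 4 in that order, and without WT-file library 3 there was 1 in glycolysis and 1 in the CCCH list. Over all genes these 2 fits called 2588 of 14056 and 699 of 14262.

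Histone and ribosomal protein genes set SH-file library 2 apart from the other two SH-file libraries. The 57 replication-dependent histone genes in the files, of which 48 were tested, summed to 1011, 267 and 944 CPM in SH-file libraries 1 to 3 and 365, 382 and 317 CPM in the WT-file libraries. SH-file libraries 1 and 3 were thus above all others, and SH-file library 2 was the lowest of the 6. 2 histone genes were called higher, Hist1h2ak (37.3, 6.45 and 27.4 against 6.59, 9.43 and 6.61 CPM, fold change 1.65, SE 0.46) and Hist1h2bk (3.29, 1.33 and 3.96 against 0.985, 1.03 and 0.661 CPM, fold change 1.69, SE 0.42), and 0 lower, with a list median of 0.97. The 77 cytosolic ribosomal protein genes had a median of 0.83, with 2 called higher, Rps21 (30.0, 6.92 and 33.1 against 7.77, 8.07 and 3.50 CPM, fold change 1.86, SE 0.47) and Rpl39 (22.4, 8.60 and 23.2 against 7.43, 7.64 and 3.75 CPM, fold change 1.52, SE 0.38), and 0 lower. In each of these 4 genes SH-file library 2 lay far below SH-file libraries 1 and 3, below all WT-file libraries in Hist1h2ak and among them in Rps21. Summed over their list, ribosomal protein genes stood at 10069, 6830 and 8435.5 CPM in SH-file libraries 1 to 3. In WT-file libraries 1 to 3 they stood at 7617, 8959 and 6702 CPM. The sums overlapped between groups, with SH-file library 2 the lowest of its group but above WT-file library 3. Without SH-file library 2 the higher calls numbered 28 for histones and 42 for ribosomal proteins, where 1374 of all 14056 genes were called higher. Higher calls among histones were 0 in each of the other 5 fits without a library, and higher calls among ribosomal proteins were 0 without WT-file libraries 1 or 3 or SH-file libraries 1 or 3. Lower calls among ribosomal proteins became 1 without WT-file library 1, 2 without SH-file library 2. Among 19 nuclear and abundant non-coding RNAs, Rpph1, the RNA of RNase P, was called higher (67.3, 10.1 and 81.4 against 7.47, 14.9 and 14.3 CPM, fold change 2.12, SE 0.54). EdgeR's adjusted p of the 5 genes ran from 0.0294 to 0.0444. EdgeR's call was lost for Hist1h2ak, Hist1h2bk and Rpph1 without WT-file libraries 1, 2 or 3 or SH-file libraries 1 or 3, for Rps21 and Rpl39 without WT-file libraries 1 or 3 or SH-file libraries 1 or 3 (adjusted p up to 0.236). DESeq2 did not call Rpph1 (adjusted p = 0.0758), and without SH-file library 2 edgeR called 3 genes of that list higher. Histone and ribosomal protein genes have near-identical copies, so their counts are uncertain. Of 89 entries of small nucleolar, small nuclear, Y and micro RNAs tested, 3 were called higher and 1 lower (median 0.28), where 3.36% of all genes were called higher and 3.06% lower. Over all genes with a known transcript length, the shortest quintile had 74 genes called higher and 109 lower, and the longest quintile 142 and 51.

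**Figure D4:**
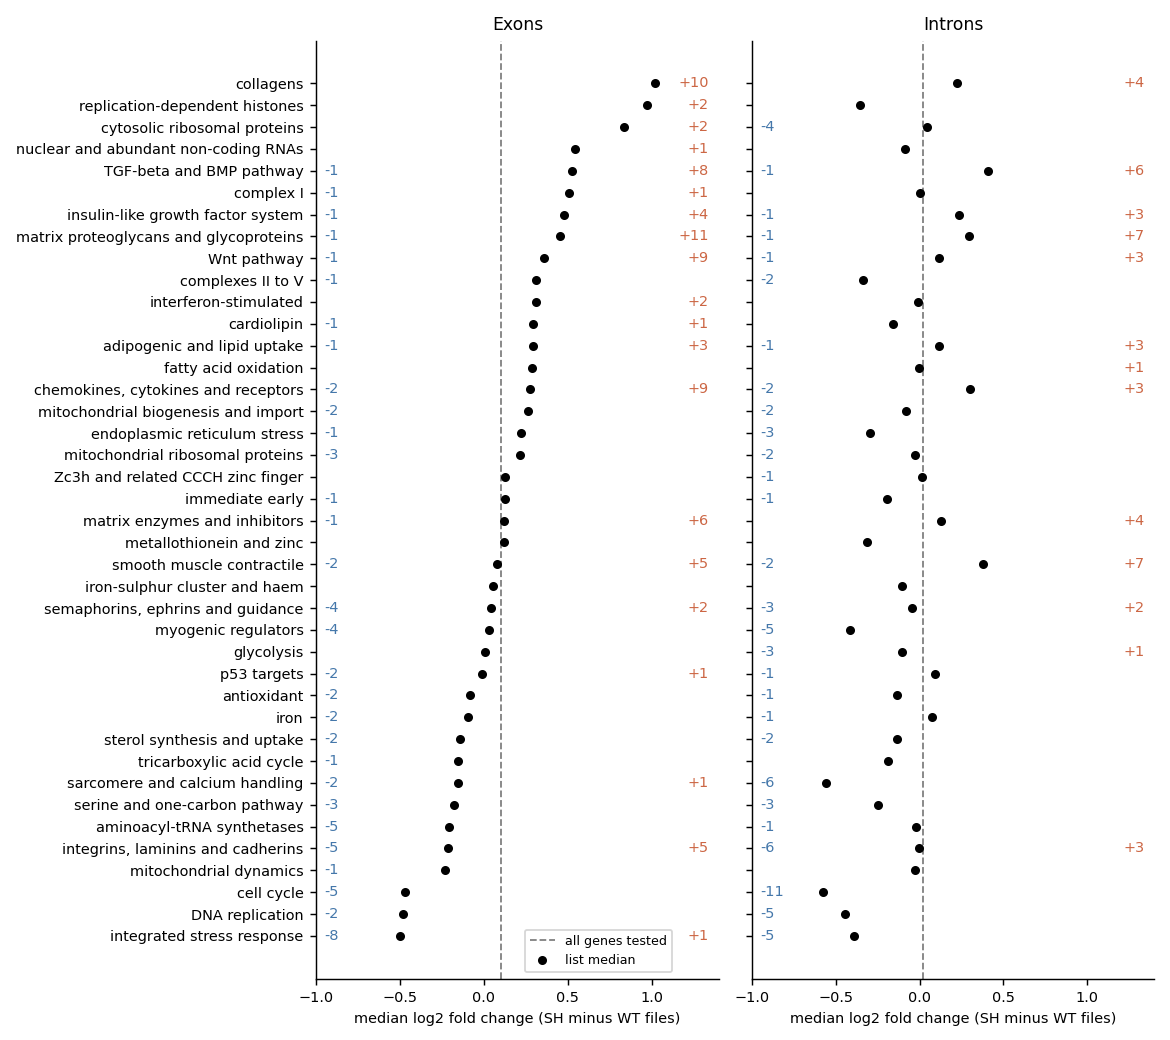
Median log2 fold change (SH-file minus WT-file libraries) of each pathway list (cell type marker lists are not drawn) over exons and over introns, sorted by the exon median, with the median of all genes tested as a dashed line. Numbers in colour are the genes of a list called higher (+) or lower (-) by edgeR. Of the lists drawn, collagens have the highest exon median (1.02, 10 called higher) and the integrated stress response the lowest (−0.50, 8 called lower).

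Over introns, the adhesion genes Cdh11 and Itga1 and the growth factor gene Igf1 were again higher in the SH-file libraries, and Msln and Klhl30 again lower. Intron CPM is scaled to the intronic counts of a library. Of 13877 genes tested over introns, edgeR called 292 higher (2.1%) and 427 lower (3.08%), with a median log2 fold change of 0.02 over all genes. This balance depended on scaling: with upper quartile scaling 462 were called higher and 319 lower, and with a minimum count of 50 in the filter 473 and 371. Il1rn, for an antagonist of interleukin 1 receptors, had the largest rise among the genes named for introns, at 93.5, 60.5 and 97.8 against 17.3, 15.9 and 7.95 CPM (2.61, SE 0.30). Cdh11 introns stood at 674, 661 and 881 against 200, 164 and 163 CPM (2.07, SE 0.18) and Igf1 introns at 115, 93.9 and 124 against 27.2, 21.6 and 32.2 CPM (2.04, SE 0.22). Slc1a3, a glutamate transporter, stood at 746, 552 and 862 against 180.2, 167 and 167 CPM over introns (2.07, SE 0.19). Its exons overlapped between groups, at 1210.0, 2069 and 837 against 337, 287 and 1148 CPM (WT-file library 3 among the high ones), and were not called (1.22, SE 0.50, adjusted p = 0.141, edgeR). P3h2, for a collagen prolyl hydroxylase, stood at 118, 97.2 and 139 against 34.1, 25.1 and 28.8 CPM over introns (2.00, SE 0.21). Nkd2 (2.31), Itga1 (2.22) and Npr3 (2.06) completed the 8 named as higher.

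Of the 8 genes that the rule named as lower over introns, the lowest were Msln (23.2, 19.8 and 11.6 against 111, 84.7 and 186 CPM, fold change −2.81, SE 0.32) and Klhl30 (40.0, 48.5 and 36.2 against 197, 192 and 237 CPM, fold change −2.33, SE 0.19), both also lower over exons. Serpinb9b, a serine protease inhibitor, stood at 17.1, 25.0 and 14.5 against 74.8, 59.5 and 96.4 CPM (−2.03, SE 0.27). Tufm, the mitochondrial elongation factor, stood at 14.7, 12.8 and 8.25 against 61.2, 30.6 and 46.5 CPM over introns (−1.96, SE 0.31) and at 245, 283 and 169 against 489, 476 and 357 CPM over exons, where the fold change was not called (−0.93, SE 0.31, adjusted p = 0.0802, edgeR). Mrgbp, of a chromatin-modifying complex, had introns at 34.5, 39.5 and 28.7 against 143, 159 and 58.2 CPM (−1.81, SE 0.31), with WT-file library 3 nearest to the SH-file libraries. Sdr39u1 (−1.95), Map3k7cl (−1.81) and Sema3c (−1.74) were the others. The adjusted p of all 16 named intron genes ran from 1.17e-04 to 0.0151 (edgeR). EdgeR no longer called Sdr39u1 without WT-file library 3 (adjusted p up to 0.0842). Intron calls over all genes were 228 without WT-file library 2, 217 without SH-file library 1 and 376 without WT-file library 1, against 719 with all libraries.

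Cell division and sarcomere genes had further calls over introns. Of 44 cell cycle genes with intron counts, 11 were called lower and 0 higher (median −0.58, shares over all genes 3.08% and 2.1%). They included Ccna2 (−1.49), Mad2l1 (−1.27), Plk1 (−1.0) and Kif20a (−1.07), genes of mitosis whose exons were not called and which were picked after their values were seen. Among 35 DNA replication genes 5 were called lower and 0 higher, with Mcm7 at −1.01. Among 38 sarcomere genes 6 were called lower and 0 higher, with the fibre genes Tnni2 at −2.69, Ttn at −1.46 and Synpo2l at −1.34. Of 11891 genes tested in both parts, 230 were called in the same direction in exons and introns, 123 higher and 107 lower, and 0 in opposite directions. These are 30.4% of the 756 called over exons and 32.2% of the 714 called over introns. Exon and intron counts come from the same libraries, so this overlap is a description. The use of strand in counting is not given in the sources used here, so intron counts of overlapping genes are uncertain.

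Other lists gave calls over introns as well, where 2.1% of all genes were called higher and 3.08% lower. They numbered 4 higher and 0 lower of 25 (median 0.22) for collagens, 7 higher and 1 lower of 40 (median 0.29) for matrix proteoglycans and glycoproteins, and 6 higher and 1 lower of 32 (median 0.41) for the TGF-beta and BMP pathway. Smooth muscle contractile genes had 7 higher and 2 lower of 24 (median 0.38), against 5 higher and 2 lower over exons. Genes of the integrated stress response had 0 higher and 5 lower of 27 (median −0.39), and myogenic regulators 0 higher and 5 lower of 28 (median −0.41). Cytosolic ribosomal protein genes, with a median of 0.83 over exons, had 0 higher and 4 lower of 75 (median 0.05) over introns. Complex I genes, with a median of 0.50 over exons, had a median of 0.00 over introns, against 0.02 for all genes. The counts of lists over introns were not recomputed without single libraries.

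Few genes were called as changing over exons to a different degree than over introns, which does not show that few did. Of 11891 genes, edgeR called 2 with an exon change above the intron change (0.0168%) and 2 with one below it (0.0168%), while 2112 had an unadjusted p below 0.05. Fmod was one of the first kind: its introns stood at 11.2, 10.3 and 8.79 against 2.66, 3.66 and 5.93 CPM, changing by 1.30 (SE 0.41) without a call, against 3.71 over exons, a difference of 2.37 (SE 0.34). The scavenger receptor gene Scara5 had exons at 10.7, 14.8 and 9.05 against 0.878, 0.883 and 1.37 CPM and overlapping introns at 15.4, 21.2 and 7.16 against 5.45, 14.3 and 9.25 CPM, a difference of 2.90 (SE 0.44). Bcap29, of the endoplasmic reticulum, had exons at 45.9, 43.0 and 33.4 against 133, 89.3 and 115 CPM and introns at 20.6, 19.2 and 26.4 against 17.8, 14.2 and 11.9 CPM, a difference of −2.07 (SE 0.32). Its exons were lower and its introns higher in the SH-file libraries, the latter not called. Ngfr, the p75 neurotrophin receptor gene, had exons at 1.78, 2.43 and 0.738 against 9.55, 6.96 and 18.2 CPM and introns at 2.91, 4.92 and 1.54 against 1.99, 0.637 and 4.91 CPM, a difference of −3.26 (SE 0.48). Scara5 and Ngfr lie below the level that the naming rule asks for and are named because the calls were so few, after their values were seen. The adjusted p was 0.0272 for each of the 4 (edgeR). The 4 calls became 0 without WT-file library 2 or 3 or SH-file library 1 or 3, 2 without WT-file library 1, and 581 without SH-file library 2. With no filter on low counts 177 were called.

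**Figure D5:**
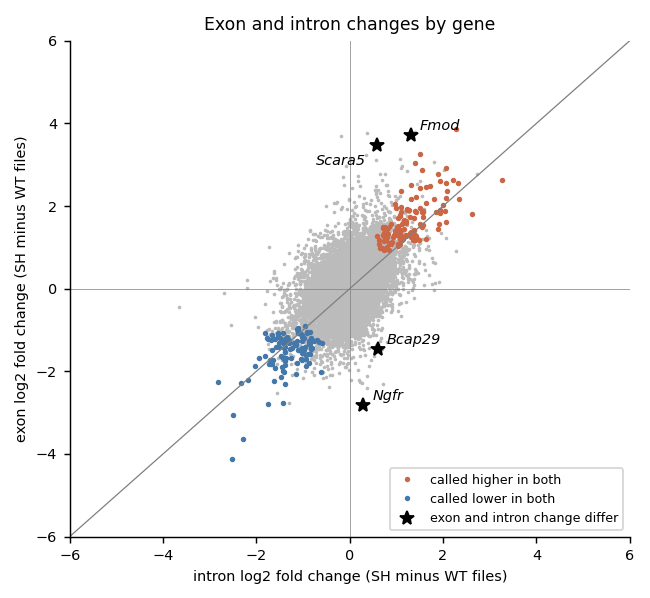
Log2 fold change over introns (horizontal) and over exons (vertical) for 11891 genes tested in both, SH-file minus WT-file libraries, with the line of equal change. Coloured points are the 123 genes called higher and the 107 called lower in both, and stars mark the 4 genes whose exon and intron changes differ by edgeR (Fmod, Scara5, Bcap29 and Ngfr).

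The 5 libraries of 4sU RNA, whose titles and file names carry the same hairpin (3 SH, 2 WT), gave side values. Of 13637 genes tested over exons there, 772 were called higher (5.66%) and 640 lower (4.69%) in SH. Zc3h10 itself was not called in 4sU RNA (−0.49, SE 0.19, edgeR adjusted p = 0.128). The 14 genes named as higher in total RNA were all called higher in 4sU RNA, and the 14 named as lower were all called lower. Fmod had a log2 fold change of 3.92 there, Nkd2 2.59, Nptx1 −2.71 and Sema3c −2.03. Il2rg stood at −0.69 in 4sU RNA against −2.24 in total RNA, and Aspn stood at 1.09 against 2.53. Of the 8 genes named as lower over introns, 8 had the same sign in 4sU exons and 6 were called, all but Tufm (−0.33) and Sdr39u1 (−0.39). Farsb (0.03), Fdft1 (−0.03), Mrpl37 (−0.02) and Rpl39 (0.09), called in total RNA, were not called in 4sU RNA. These 4 and the examples above were picked after their values were seen, and the difference between the kinds of RNA was not tested here. Total RNA was a portion set aside from harvests of cells exposed to 4sU, so these values cannot be taken as independent. Which libraries share a harvest is not stated. For the 28 genes named by size, the signs match for the grouping by file name and are opposite for the grouping by title. Among other genes called in total RNA the signs differed, by file name, for Farsb (−1.13 in total RNA, 0.03 in 4sU RNA). They differed also for Tfb1m (−1.74 and 0.39) and Cat (−1.20 and 0.16), among others. Which name is right was not tested.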

How the data were processed

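Counts of reads per gene over exons and over introns were deposited by the authors, 1 file of each per library, as whole numbers with no normalization. The submitters' processing notes name TopHat2 2.0.8 and the mouse build mm9. How reads were assigned to genes, on which annotation and with which strand setting, is not given in the sources used here. Groups were set by file name, as the titles of all 6 libraries name the other hairpin. Library size was scaled by TMM, genes of low count were removed with filterByExpr (minimum count 10, minimum total 15), and groups were compared with edgeR 4.0.16 (quasi-likelihood test, R 4.3.3) with Benjamini-Hochberg adjustment over all genes and a threshold of 0.05. Exon and intron changes were compared in 1 model with library as a block. Alternatives were DESeq2 1.42.0 and its size factors, upper quartile scaling, no filter, a minimum count of 50, a replicate block, and leaving out each library. Rows with a gene ID and no symbol (85 over exons, 0.0677 to 0.207% of exonic counts) took part as listed and are not named. Libraries differed beyond sampling noise within each group (chi-square per degree of freedom from 125 over exons and from 10.1 over introns), so none was counted as a duplicate. The fitting steps were tested on simulated data. Of genes past the threshold with separate groups and at least the median level, the 14 with the largest change each way over exons, 8 over introns and up to 6 between them are named, with up to 4 called genes per list by adjusted p, and 18 genes of iron, cardiolipin, mitochondrial and muscle regulation, Zc3h10 included. Other called members are named to complete a list. Members, lists and this rule were chosen with earlier results of these data known. A few items that the rule selects are not reported here.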

Additional observations from a re-analysis of the deposited data

How the results depend on the processing

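Over exons, the 889 genes called by edgeR became 1591 with no filter and 1877 with DESeq2, of which 41.6% were higher against 52.3% by edgeR. With 1 library left out they ranged from 161 to 2588. Over introns, the 719 called genes became 1260 with DESeq2 and ranged from 217 to 1048 with 1 library left out. The 4 genes called for different exon and intron changes became 177 with no filter, 2 with a minimum count of 50, and ranged from 0 to 581 with 1 library left out. At the 4 libraries whose omission left 0 by edgeR, 1212 to 1855 genes had an unadjusted p below 0.05, and DESeq2 was not run on that comparison. The median log2 fold change of all genes over exons was 0.10 with TMM, 0.13 with upper quartile scaling and 0.04 with DESeq2's size factors, and over introns 0.02, 0.08 and 0.05. Counts of lists also depended on the tool. DESeq2 called 10 DNA replication genes lower, against 2 by edgeR. It called 16 ribosomal protein, 10 histone and 6 complex I genes higher, against 2, 2 and 1. Some lists kept their count, as the Wnt pathway with 9 higher by both tools.

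The exon change of Zc3h10 passed the threshold with DESeq2 (−1.10), with its size factors in edgeR (−1.10) and with no filter (−1.05), and ranged from −1.30 to −0.79 with 1 library left out. Its intron change missed the threshold with upper quartile scaling (−1.01) and ranged from −1.22 to −0.87 with 1 library left out. The causes were not tested. Of the 28 genes named by size over exons, 27 were called in each fit without a library, and of all 117 named genes called over exons, 48 were. Genes near no change turned sign with 1 library left out: Fth1 (−0.42 to 0.0512), Ftl1 (−0.35 to 0.00664), Slc11a2 (−0.18 to 0.0591), Ppargc1a (−0.62 to 0.0803), Ppargc1b (−0.13 to 0.40), Nrf1 (−0.0828 to 0.10), Myf5 (−0.23 to 0.29) and Myog (−0.12 to 0.20). Nrf1 was also at −0.00340 with DESeq2 and at −0.00336 with its size factors.

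Replicate numbers are shared by the groups, but the deviations of same-numbered libraries correlated at 0.25, −0.21 and −0.22 over exons and −0.08, −0.14 and −0.49 over introns, so the numbers were not taken as pairs. With a replicate block, edgeR called 100 genes over exons and 217 over introns, and the intron change of Zc3h10 (−1.06) missed the threshold. Of the 28 genes named by size, 23 were called with the block, and of all 117 named genes called over exons, 40 were. The comparison of exons with introns has library as a block in its design. Exonic depth was at least 31058706 counts per library, and libraries of 1 group differed by more than counting noise, with chi-square per degree of freedom from 125 over exons and from 10.1 over introns.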
